A study of Mus musculus with 20 samples.

Results

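The comparison described here sets 2 progenitor populations of the neonatal mouse subventricular zone (SVZ) directly against each other. GRP2/MP3 and PFMP were each represented by 4 libraries, numbered 1 to 4 by batch, which are 8 of the 20 libraries of the series. The libraries were compared batch by batch on the log2(RPKM + 1) scale, where RPKM is the read count scaled to gene length and library size. A gene was tested if 4 or more of the 8 libraries reached 1 RPKM, and 14725 of the 45705 genes in the table met this. A difference is given throughout as GRP2/MP3 minus PFMP, so that a negative value is higher in PFMP.

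GRP2 stands for glial-restricted progenitor 2, MP3 for multipotential progenitor 3, and PFMP for the multipotential progenitor that responds to PDGF and FGF. All 8 libraries were labelled as coming from the dissected periventricular tissue of untreated Swiss Webster pups at P5, with litters pooled and both sexes included. Live single cells were sorted on CD140a, NG2, CD133 and CD15 (Lewis X). Both gates lay on the NG2-positive, CD133-negative side. The PFMP gate held CD140a-positive, CD15-positive cells, and the GRP2/MP3 gate held cells low or negative for CD140a and negative for CD15, so the gates differed in CD140a and CD15. GRP2 and MP3 cells carry the same antigens and were collected as a mixture, and pericytes also carry NG2. In such bulk samples, fewer cells of a type and less RNA per cell cannot be told apart.

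CD140a is the receptor PDGFRA, and NG2 is the proteoglycan encoded by Cspg4. Oligodendrocyte progenitor cells (OPCs) carry both, and are specified by the transcription factors OLIG1, OLIG2 and SOX10 before they differentiate and myelinate axons. NG2 is also found on pericytes, the mural cells of capillaries. Microglia are the resident macrophages of the brain. They sense nucleotides through P2RY12, clear debris with complement and lysosomal proteases, and signal through Fc receptors and through TREM2, which pairs with the adaptor TYROBP. Their fate depends on the ETS-family factor PU.1, encoded by Spi1.

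The libraries of batch 3 stood apart from the others, so levels are given batch by batch, and fitted differences and counts mostly also without batch 3. The GRP2/MP3 and PFMP libraries of batch 3 correlated at r = 0.975 over the tested genes, against 0.631, 0.662 and 0.888 in batches 1, 2 and 4 (a description across genes within one pair of libraries). Only 524 genes (3.56%) differed by 1 log2 unit or more in batch 3, against 7867 (53.4%), 7856 (53.4%) and 3695 (25.1%) in batches 1, 2 and 4. In batch 3 both libraries were also high in genes of airway epithelium and alveolar macrophages. Scgb1a1, the club cell secretory protein, was at 944 RPKM in GRP2/MP3 and 947 in PFMP of batch 3, and at no more than 0.844 in the other 6 libraries. The 10 erythrocyte genes in the table summed to 17.9% of the RPKM of each batch 3 library and to between 0.0386% and 1.22% elsewhere. Their part in the results of batch 3 was not tested. Pdgfra, whose product was sorted for, was at 3.84 in the library labelled PFMP of batch 3, below 2 of the GRP2/MP3 libraries. The batch 3 libraries thus went against their labels in tissue markers, and the PFMP library was low in the gene of a sorted antigen, so their origin is in doubt, and every value over 4 batches includes them under the labels they carry. RPKM sums ranged from 955067 to 2182440 per library, with 20116 to 38168 genes above 0, and read totals are unknown, so no counting interval is given.

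The other batches had limits of their own. The GRP2/MP3 library of batch 4 had 22532 genes at 1 RPKM or more, against 12946 to 15870 in the other 7, and its 38168 genes above 0 were the most of the 8. In it 244 of 1257 olfactory receptor genes, which are not markers of any gated cell, were at 1 RPKM or more, against 2 in PFMP of batch 4 and up to 108 elsewhere. The part of this in the batch 4 differences was not tested. The batch numbers of batches 1 and 2 were taken from the labels, but after the population means were removed GRP2/MP3 of batch 2 correlated at 0.582 with PFMP of batch 1 and GRP2/MP3 of batch 1 at 0.382 with PFMP of batch 2, above the 0.159 and 0.0298 of the same numbers. Whether the numbers of batches 1 and 2 match between the populations is thus in doubt. The fitted difference over 4 batches is a difference of means and is the same under either pairing, whereas its SE and p, the differences within batches 1 and 2 and the steps counted from them rest on the labelled one.

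No gene passed the adjusted threshold in either direction. With limma, the batch as a block and the Benjamini-Hochberg method, the number of genes with an adjusted p under 0.05 was 0 (0%) higher in GRP2/MP3 and 0 (0%) higher in PFMP, with 4 batches and also without batch 3. The lowest adjusted p was 0.5, shared by 1280 genes, and without batch 3 it was 0.155, shared by 107 genes. At an unadjusted p under 0.05 there were 876 genes (5.95%) higher in GRP2/MP3 and 571 (3.88%) higher in PFMP. Without batch 3 these counts were 1140 (7.74%) and 612 (4.16%). The counts given below for gene lists are to be set against these shares, and a count near them is no result about a list. The p-values below are unadjusted unless stated, are descriptions of genes that did not pass the threshold, and measure the spread between these libraries.

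A second measure used no p. Over batches 1, 2 and 4, 620 genes (4.21%) were at least 1 log2 unit higher in GRP2/MP3 in each batch, and 272 (1.85%) were at least 1 log2 unit higher in PFMP in each. These are called here the genes with a repeated step. Of the 620, 535 (86.3%) were protein coding, as were 252 (92.6%) of the 272, against 82.9% of all genes tested. The 524 genes with a step in batch 3 differed in kind, and 165 of them (31.5%) were protein coding. Groups did not overlap over all 4 batches for 69 genes (0.469%) with every GRP2/MP3 library above every PFMP library, and for 43 genes (0.292%) the other way.

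Part of what batches 1 and 2 shared was also seen in batch 4. There were 1221 genes at least 1 log2 unit higher in GRP2/MP3 in both batch 1 and batch 2, of which 620 (50.8%) were so in batch 4 and 28 were so in the opposite direction. On the PFMP side there were 1372 such genes, of which 272 (19.8%) repeated in batch 4 and 102 were opposite. In batch 3 the same step was seen for 22 (1.8%) and 68 (4.96%) of these genes, and the opposite step for 25 and 9. The median difference over all genes tested was -0.26, -0.17, -0.01 and 0.07 in batches 1 to 4.

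**Figure D1:**
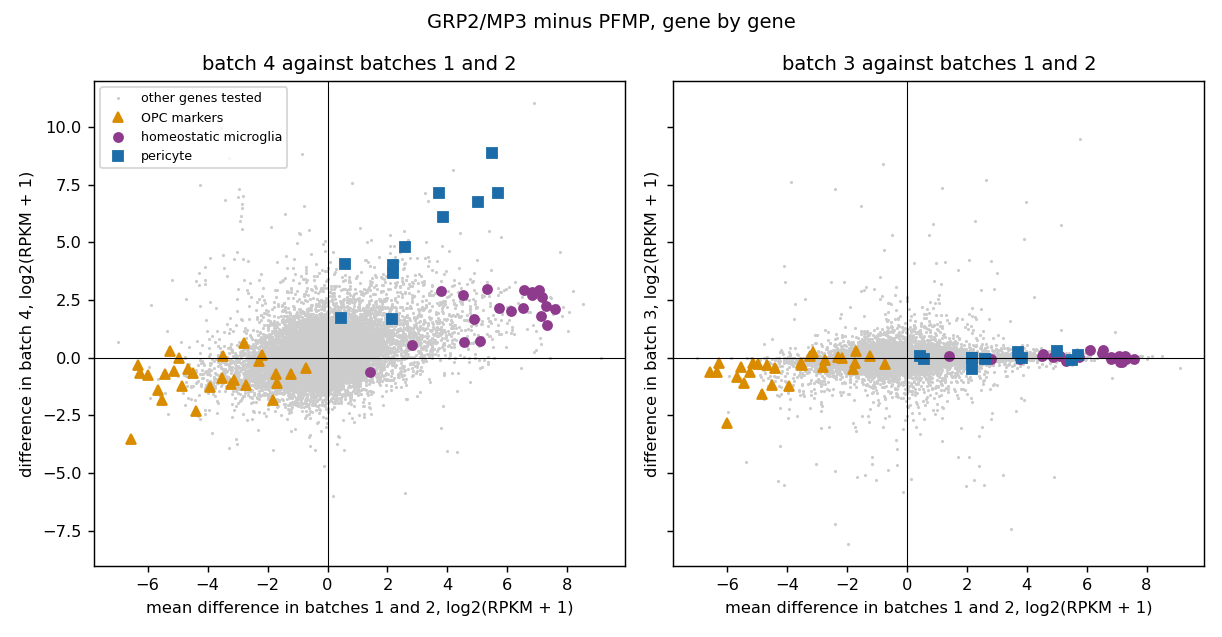
Difference of each tested gene (GRP2/MP3 minus PFMP, log2(RPKM + 1)) in batch 4 (left panel, y axis) and in batch 3 (right panel, y axis) against its mean difference in batches 1 and 2 (x axis), with OPC, microglial and pericyte genes marked. In batch 4 the microglial and pericyte genes lie above 0 with 1 exception among the microglial genes, with medians of 2.14 and 4.77, and in batch 3 the 3 lists lie along 0, with medians of -0.32, 0.04 and 0.00.

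Of the genes behind the sorting antigens, Pdgfra followed its gate. Pdgfra (chr5:75152292-75198215, + strand, protein coding, GENCODE vM21 on GRCm38) was at 1.8, 5.23, 2.18 and 7.49 in GRP2/MP3 and 658, 239.8, 3.84 and 96.9 in PFMP. PFMP was higher in each of the 4 batches, though the batch 3 PFMP library lay below 2 of the GRP2/MP3 libraries, so the groups overlapped. Mean Pdgfra was 4.18 ± 2.69 RPKM in GRP2/MP3 and 249.7 ± 289 in PFMP (SD, n = 4). The log2 difference was -4.32 (SE 1.06, unadjusted p = 0.00438), and -5.56 without batch 3 (0.000351). Since CD140a was used to sort the cells, this difference checks the labels and is no finding.

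Cspg4 (chr9:56865033-56899870, + strand), whose product NG2 was positive in both gates, was at 5.91, 9.64, 0.0431 and 7.89 in GRP2/MP3 and 23.5, 146, 0.398 and 4.7 in PFMP. It was higher in PFMP in batches 1 to 3 and lower in batch 4, with a difference of -1.35 (SE 0.74, unadjusted p = 0.11). Prom1 (chr5:43993620-44102032, - strand) encodes CD133, negative in both gates, and was at 5.75, 14.1, 1.36 and 11.2 in GRP2/MP3 and 7.6, 5.12, 0.255 and 18.2 in PFMP. Its groups overlapped, and the difference of 0.3 turned to -0.032 without batch 2. The CD15 carbohydrate has no gene of its own, and its fucose is added by FUT9 and FUT4. Fut9 (chr4:25609332-25800244, - strand) was at 0.418, 1.76, 0.00361 and 4.22 in GRP2/MP3 and 11.8, 7.13, 0.112 and 7.72 in PFMP, higher in PFMP in each batch (-1.41, SE 0.56, unadjusted p = 0.0403, and -1.82 without batch 3). Fut4 was at 0.37, 4.96, 0.674 and 2.32 in GRP2/MP3 and 1.7, 1.36, 1.03 and 0.0164 in PFMP, and differed in direction between batches (0.45).

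**Figure D2:**
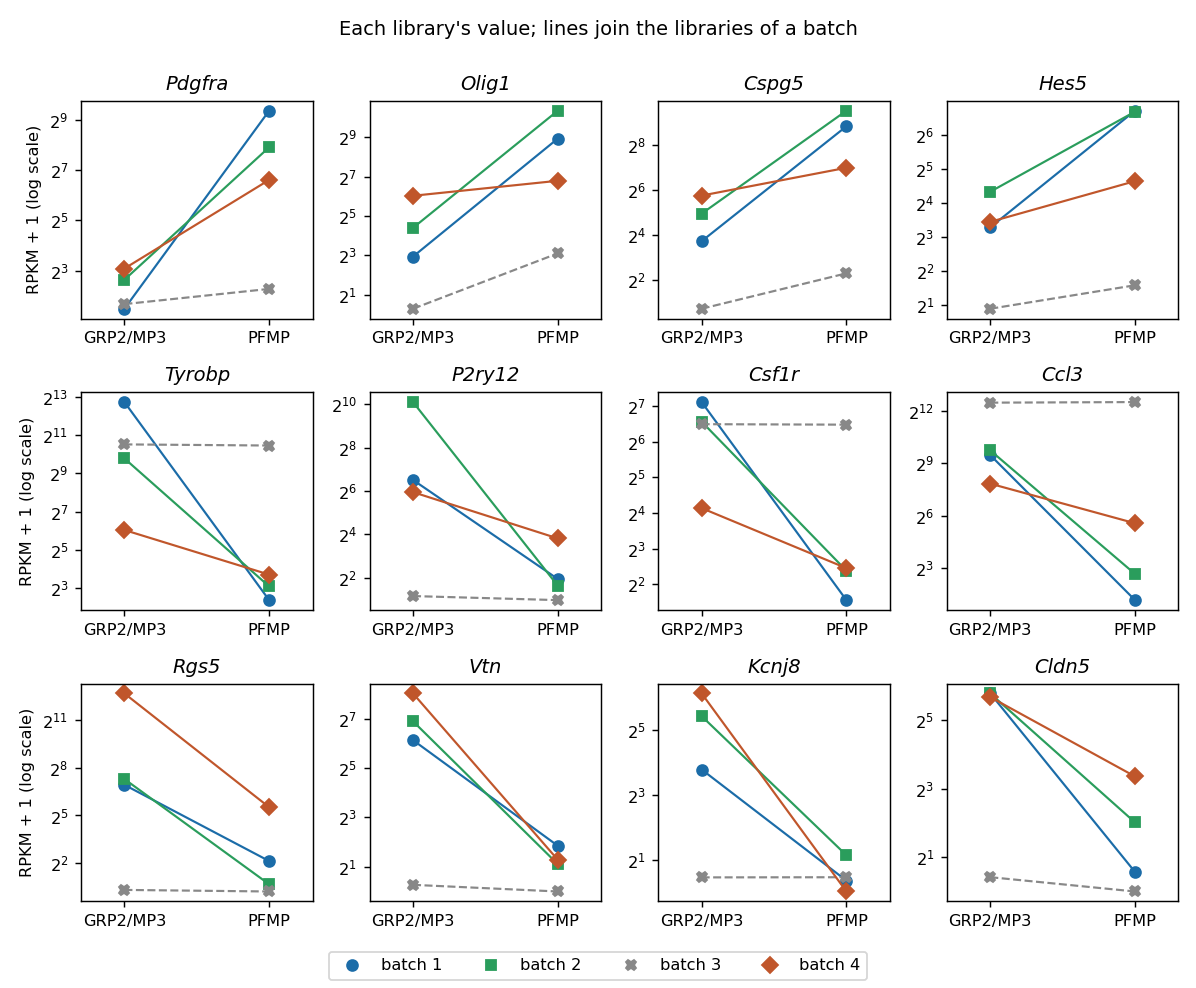
RPKM + 1 (log axis) of 12 genes in each of the 8 libraries, GRP2/MP3 on the left and PFMP on the right of each panel, with a line joining the libraries of a batch. The 4 genes in the top row run upward to PFMP in every batch, and the 8 genes below run downward in batches 1, 2 and 4 while the dashed batch 3 line is nearly level.

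OPC genes were higher in PFMP. All 28 genes of the OPC list passed the filter, and 28, 27, 22 and 24 of them were higher in PFMP in batches 1 to 4. The median difference of the list was -4.31, -3.93, -0.32 and -0.73 in batches 1 to 4, and -2.54 in the fit (all genes tested: -0.11). At an unadjusted p under 0.05, 21 of the 28 were higher in PFMP and 0 in GRP2/MP3, with batch 3 and without it, and 9 had a repeated step. Of all genes tested, 3.88% were higher in PFMP at that p and 1.85% had a repeated step in that direction. Pdgfra and Cspg4, which the sort used directly, are 2 of the 28. The study itself named members of the list, among them Matn4, Tmem255b, Brinp3, Lhfpl3 and Rxrg. It named them as raised in PFMP or in another progenitor population of the series, so their directions are not independent evidence. As a share of library RPKM, the 28 genes together came to 0.00505, 0.0324, 0.00816 and 0.0575% in GRP2/MP3 and 0.331, 0.293, 0.0101 and 0.117% in PFMP. The lowest PFMP share, 0.0101% in batch 3, lay below the 2 highest GRP2/MP3 shares. In batch 3, 9 of the 28 genes were listed at 0 in GRP2/MP3 and 1 in PFMP.

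Olig1, Olig2, Sox10, Rxrg and Sox6, transcription factors of the lineage, were higher in PFMP in all 4 batches, by less than 1 log2 unit in batch 4 for the first 3 and by more for Rxrg and Sox6. Olig1 (chr16:91269772-91271933, + strand), a basic helix-loop-helix factor of oligodendrocyte maturation, was at 6.63, 20.03, 0.211 and 64.2 in GRP2/MP3 and 489.6, 1311, 7.54 and 109.7 in PFMP. The fitted difference was -3.89 (SE 0.92, unadjusted p = 0.00351), with differences of -6.01 and -5.96 in batches 1 and 2 and -0.76 in batch 4. Olig2 (chr16:91225457-91228677, + strand), which specifies the lineage, was at 2.04, 29.9, 0.468 and 25.5 in GRP2/MP3 and 622, 277, 2.19 and 42.9 in PFMP (-3.17, SE 1.1, unadjusted p = 0.0226, and -3.86 without batch 3). Sox10 (chr15:79154908-79165240, - strand), which drives myelin genes, was at 1.01, 0.671, 0 and 16.5 in GRP2/MP3 and 78.7, 276, 0.545 and 21 in PFMP (-3.41, SE 1.19, unadjusted p = 0.0236, and -4.34 without batch 3). The GRP2/MP3 library of batch 4 had the highest Sox10 level of its group. Rxrg, a retinoid X receptor, was at 0.251, 0.967, 0 and 10.5 in GRP2/MP3 and 5.2, 3.86, 0.417 and 40.04 in PFMP (-1.49, SE 0.46, unadjusted p = 0.0133, and -1.82 without batch 3), and Sox6 at 0.699, 2.76, 0.0037 and 4.89 in GRP2/MP3 and 18.1, 13.6, 0.0827 and 12.4 in PFMP (-1.68, SE 0.6, unadjusted p = 0.0259, and -2.21 without batch 3).

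Membrane and secreted proteins of OPCs gave further members of this group, of which Tmem255b, Brinp3 and Matn4 are top genes the study named in PFMP. Tmem255b, a membrane protein, was at 0, 0.403, 0 and 9.4 in GRP2/MP3 and 18.4, 150.5, 0.326 and 35.7 in PFMP (-3.31, SE 0.99, unadjusted p = 0.0115, and -4.28 without batch 3). Brinp3, a neurally expressed gene, was at 0.293, 0.761, 0 and 6.93 in GRP2/MP3 and 23.7, 39.5, 0.352 and 39.1 in PFMP (-2.89, SE 0.73, unadjusted p = 0.00526, and -3.7 without batch 3). Matn4, the matrix protein matrilin 4, was at 0.895, 1.27, 0 and 8.02 in GRP2/MP3 and 55.4, 93.5, 0.193 and 12.4 in PFMP (-2.78, SE 0.97, unadjusted p = 0.0234, and -3.62 without batch 3). Tmem255b and Brinp3 had a repeated step to PFMP, as did 1.85% of all genes tested. Gpr17, a receptor of committed precursors, was at 0.665, 3.04, 0.00272 and 25.4 in GRP2/MP3 and 94.8, 66.9, 0.201 and 25.7 in PFMP, level between the populations in batch 4 (-2.55, SE 1.01, unadjusted p = 0.0386, and -3.31 without batch 3).

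Genes of the perineuronal and glial matrix followed the OPC genes. Of 11 genes, 8 were tested, 6 were higher in PFMP with an unadjusted p below 0.05, also 6 without batch 3, and 3 had a repeated step. The medians were -3.89, -2.36, -0.31 and -0.73 in batches 1 to 4. Genes that are also on the OPC list, such as Cspg5 and Vcan, are counted in both. Cspg5 (neuroglycan C) was at 12.2, 29.9, 0.645 and 53 in GRP2/MP3 and 457, 739.6, 3.9 and 126 in PFMP (-3.13, SE 0.76, unadjusted p = 0.00407, and -3.64 without batch 3). Bcan (brevican) was at 6.79, 7.93, 0.135 and 37.2 in GRP2/MP3 and 106, 344, 1.23 and 61.9 in PFMP (-2.69, SE 0.82, unadjusted p = 0.0125, and -3.26 without batch 3). Vcan (versican) was at 0.805, 5.13, 1.02 and 3.52 in GRP2/MP3 and 36.3, 24.7, 0.929 and 8.97 in PFMP (-1.88, SE 0.73, unadjusted p = 0.0354, and -2.53 without batch 3). Each of these 3 was higher in PFMP in batches 1, 2 and 4, and Cspg5 and Bcan were lowest in batch 3 in both populations.

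Glutamate and GABA receptor subunits, through which OPCs receive synaptic input, were also higher in PFMP. Of 35 genes, 23 were tested and 10 were higher in PFMP at an unadjusted p under 0.05, with 0 higher in GRP2/MP3, and the counts were equal without batch 3. Medians ran -1.42, -0.95, -0.08 and -0.64. The AMPA receptor subunit gene Gria3 was at 0.781, 1.07, 0.258 and 3.66 in GRP2/MP3 and 38.6, 21.9, 0.22 and 21.7 in PFMP (-2.55, SE 0.74, unadjusted p = 0.0105, and -3.41 without batch 3). Gria3 had a repeated step to PFMP, as did 1.85% of all genes tested, and was at 0.22 RPKM in PFMP of batch 3. All 4 AMPA subunit genes, Gria1 to Gria4, were among the 10.

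Genes of the later stages of the lineage leaned to PFMP, by smaller medians than the OPC genes. Of 20 premyelinating and myelin genes, 15 were tested, and 14, 13, 8 and 11 were higher in PFMP in batches 1 to 4. At an unadjusted p below 0.05, 3 were higher in PFMP, against 3.88% of all genes tested. A repeated step was seen for 1 (1.85% of all genes tested). The list medians were -1.09, -1.37, -0.08 and -0.43. Mbp, myelin basic protein, was at 5.36, 12.2, 10.5 and 51 in GRP2/MP3 and 12.6, 27.8, 8.46 and 93.6 in PFMP (-0.7, SE 0.45, unadjusted p = 0.164, and -1.03 without batch 3). It was highest in batch 4, in GRP2/MP3 as well as in PFMP. Ugt8a, which makes the myelin lipid galactocerebroside, was at 1.81, 1.1, 0.199 and 5.06 in GRP2/MP3 and 48.5, 25.8, 0.0818 and 7.88 in PFMP (-2.05, SE 0.8, unadjusted p = 0.0369, and -2.79 without batch 3).

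The PDGF and FGF pathway, for which PFMP are named, had counts near those of all genes tested. Of 26 genes 20 were tested, with 1 higher in each population at an unadjusted p under 0.05, against 5.95% of all genes higher in GRP2/MP3 and 3.88% higher in PFMP, so the counts say nothing particular about the pathway. The 1 higher in PFMP was Pdgfra, whose product was sorted for. Medians were -1.44, -0.24, -0.19 and -0.34 in batches 1 to 4. The ligand Pdgfb was higher in GRP2/MP3, at 3.42, 7.1, 4.49 and 3.73 in GRP2/MP3 and 0.141, 0.0803, 4.51 and 0.73 in PFMP (1.58, SE 0.53, unadjusted p = 0.0207, and 2.1 without batch 3), with the batch 3 libraries nearly equal. Pdgfa, the main ligand of PDGFRA, was at 12.1, 11.1, 18 and 17.7 in GRP2/MP3 and 27.8, 54.9, 19.9 and 13.7 in PFMP and overlapped (-0.78, SE 0.54, unadjusted p = 0.189, and -1.0 without batch 3). Fgfr1 was at 1.29, 2.81, 3.49 and 2.99 in GRP2/MP3 and 12.9, 6.66, 3.57 and 4.11 in PFMP, so that each PFMP library exceeded each GRP2/MP3 library, narrowly for batch 3 (-1.0, SE 0.54, unadjusted p = 0.107, and -1.32 without batch 3). Such a separation was seen for 0.292% of all genes tested. Etv5, an ETS factor induced by FGF signalling, was at 18.4, 33.3, 2.46 and 4.23 in GRP2/MP3 and 51.9, 63.8, 3.01 and 6.81 in PFMP (-0.79, SE 0.44, unadjusted p = 0.112, and -0.98 without batch 3). Pdgfrb, the PDGF receptor of pericytes, did not pass the filter and was at 16.1, 6.74, 0.104 and 30.8 in GRP2/MP3 and 0.145, 0.0415, 0.23 and 0.532 in PFMP.

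Some members of the Notch pathway were higher in PFMP. Of 25 genes 21 were tested, with 4 higher in PFMP and 1 higher in GRP2/MP3 at an unadjusted p under 0.05, with batch 3 and without it. The 1 of 21 is below the 5.95% of all genes tested and no result about the pathway. The 4 of 21 stand against 3.88% of all genes tested, but by its median the list leaned to PFMP in batch 1 only. The medians were -0.74, 0.24, 0.00 and 0.29. Hes5, a direct Notch target in neural progenitors, was at 8.72, 19.1, 0.859 and 9.88 in GRP2/MP3 and 103, 101, 2 and 23.9 in PFMP (-1.91, SE 0.56, unadjusted p = 0.0107, and -2.32 without batch 3). The ligand Dll3, also on the OPC list, was at 2.17, 8.31, 0.0349 and 21.4 in GRP2/MP3 and 114, 368, 0.6 and 17.3 in PFMP (-2.71, SE 1.03, unadjusted p = 0.0333, and -3.4 without batch 3), and lay slightly higher in GRP2/MP3 in batch 4. Hey1 was at 3.26, 7.2, 0.536 and 6.14 in GRP2/MP3 and 32.7, 14.1, 0.765 and 21.5 in PFMP (-1.43, SE 0.56, unadjusted p = 0.037, and -1.84 without batch 3). Heyl, a Notch target of mural cells that is also on the pericyte list, was higher in GRP2/MP3, at 2.7, 5.08, 0 and 7.6 in GRP2/MP3 and 0.125, 0, 0 and 1.67 in PFMP (1.5, SE 0.48, unadjusted p = 0.0153, and 2.0 without batch 3).

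Microglial genes were higher in GRP2/MP3. Of 23 genes, 20 were tested, 18 were higher in GRP2/MP3 at an unadjusted p under 0.05 (0 in PFMP), 19 without batch 3, and 16 had a repeated step. Among all genes tested, 5.95% were higher in GRP2/MP3 at that p, 7.74% without batch 3, and 4.21% had a repeated step in that direction. The median difference was 5.89, 5.81, 0.04 and 2.14 in batches 1 to 4, so that batch 3 held no difference. Summed over the 23 genes, their share of library RPKM was 0.329, 0.614, 0.168 and 0.0727% in GRP2/MP3 and 0.00379, 0.00353, 0.169 and 0.0123% in PFMP. The GRP2/MP3 share exceeded the PFMP share of the same batch in batches 1, 2 and 4, and the 2 batch 3 shares were nearly equal. The 2 batch 3 shares lay above that of GRP2/MP3 in batch 4.

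P2ry12 (chr3:59216272-59262871, - strand, inside the span of Med12l in GENCODE vM21), the ADP receptor of homeostatic microglia, was at 90.1, 1101, 1.22 and 60.7 in GRP2/MP3 and 2.83, 2.09, 0.951 and 13 in PFMP (3.84, SE 1.22, unadjusted p = 0.0152, and 5.06 without batch 3). Cx3cr1, the fractalkine receptor, was at 101, 121, 0.931 and 19.8 in GRP2/MP3 and 0.383, 0.875, 0.549 and 4.22 in PFMP (3.64, SE 1.03, unadjusted p = 0.00912, and 4.74 without batch 3). Crybb1, a crystallin gene used as a marker of young microglia, was at 252, 123, 0 and 16.4 in GRP2/MP3 and 0, 0.513, 0.126 and 1.82 in PFMP (4.2, SE 1.25, unadjusted p = 0.0115, and 5.66 without batch 3). These markers were at or under 1.22 RPKM in both batch 3 libraries. Csf1r, the receptor for the growth factors CSF1 and IL34, was at 138, 93.8, 89.3 and 16.6 in GRP2/MP3 and 1.94, 4.21, 88.4 and 4.47 in PFMP (2.86, SE 0.89, unadjusted p = 0.0143, and 3.81 without batch 3). Unlike P2ry12 and Cx3cr1, Csf1r was high in batch 3 and nearly equal in both populations. For 4 of the 20 genes, P2ry13, Tmem119, Aif1 and Ltc4s, every GRP2/MP3 library exceeded every PFMP library, with the 2 batch 3 libraries closest. This separation was seen for 0.469% of all genes tested. P2ry13, another ADP receptor, was at 31.4, 156, 2.16 and 10.2 in GRP2/MP3 and 0.247, 0.447, 2.1 and 1.55 in PFMP and Aif1, which encodes IBA1, at 1751, 200.3, 54.4 and 118 in GRP2/MP3 and 4.01, 7.01, 43.2 and 14.8 in PFMP.

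Genes that signal through Fc receptors, TYROBP and the kinase SYK were higher in GRP2/MP3. Of 23 genes 22 were tested, 18 were higher in GRP2/MP3 at an unadjusted p under 0.05 and 15 had a repeated step, with medians of 3.4, 3.92, 0.00 and 1.37. Tyrobp (chr7:30413760-30417585, + strand), the adaptor itself, was at 6797, 881, 1464 and 64.7 in GRP2/MP3 and 4.18, 7.5, 1406 and 12.1 in PFMP. Its mean was 2302 ± 3051 RPKM in GRP2/MP3 and 357 ± 699 in PFMP (SD, n = 4). The difference was 4.86 (SE 1.53, unadjusted p = 0.0149), and 6.46 without batch 3 (0.00162). Fcer1g, the shared gamma chain of Fc receptors, was at 6018, 738, 1040.1 and 303 in GRP2/MP3 and 3.68, 10.1, 989 and 40.2 in PFMP (4.84, SE 1.48, unadjusted p = 0.013, and 6.42 without batch 3). Within GRP2/MP3 both genes were highest in batch 1 and lowest in batch 4, and within PFMP both were highest in batch 3.

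The promoters of this list and of the OPC list are shown for the letters they share. In the 250 bases before the RefSeq start (GRCm38.p6), the letters GAGGAAGT, the core bound by PU.1, were found on either strand in 4 of 19 Fc-list genes that had a window (21.1%), in 0 of 20 OPC genes and in 286 of 9712 tested genes (2.94%). The 4 stretches of 60 bases that hold it are printed 5′ to 3′ on the strand of the gene, with the matching letters in capitals:

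Fcgr4 (chr1:171018866-171018925, +): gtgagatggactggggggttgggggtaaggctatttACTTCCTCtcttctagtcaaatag

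Inpp5d (chr1:87620252-87620311, +): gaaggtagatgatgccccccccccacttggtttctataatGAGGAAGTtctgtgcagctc

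Pik3cg (chr12:32208628-32208687, -): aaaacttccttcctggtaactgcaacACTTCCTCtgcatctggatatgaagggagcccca

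Vav1 (chr17:57279040-57279099, +): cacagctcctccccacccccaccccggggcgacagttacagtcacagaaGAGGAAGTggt

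Fcgr4 (an IgG receptor) was at 17.9, 12, 74.4 and 1.86 in GRP2/MP3 and 0.466, 0.0532, 64.3 and 0 in PFMP, and Vav1 (a guanine nucleotide exchange factor) at 55.7, 56.1, 51.9 and 6.29 in GRP2/MP3 and 0.471, 0.22, 55.2 and 1.42 in PFMP. Inpp5d (the phosphatase SHIP1) was at 21.1, 45.2, 52.2 and 2.81 in GRP2/MP3 and 0.138, 0.393, 51.9 and 0.251 in PFMP, and Pik3cg (a PI3-kinase subunit) at 11.5, 16.9, 10.1 and 2.1 in GRP2/MP3 and 0.446, 0.0347, 9.62 and 0.484 in PFMP. All 4 genes were higher in GRP2/MP3 in batches 1, 2 and 4 and close to equal in batch 3. The shorter core GGAAGT, which the 8 letters contain, was found in 11 of 19 Fc-list windows (57.9%), 8 of 18 microglial (44.4%), 5 of 12 complement (41.7%), 2 of 20 OPC (10%) and 2570 of all 9712 (26.5%). GAGGAAGT was in 0 of the 18 microglial windows.

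The E-box CAGCTG, to which basic helix-loop-helix factors bind, was in 6 of 20 OPC windows (30%), 4 of 18 microglial (22.2%), 2 of 19 Fc-list (10.5%) and 1388 of all 9712 (14.3%). The windows of 3 of the 6 OPC genes are printed in the same way:

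Dll3 (chr7:28301786-28301845, -): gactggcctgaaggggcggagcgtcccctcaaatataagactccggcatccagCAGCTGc

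Rxrg (chr1:167618155-167618214, +): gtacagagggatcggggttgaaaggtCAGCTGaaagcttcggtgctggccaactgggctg

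Sox6 (chr7:115846263-115846322, -): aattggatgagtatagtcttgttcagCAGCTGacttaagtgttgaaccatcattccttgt

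In all, 11 motifs were counted on both strands. Of the others, the E-box CATCTG was in 3 of 20 OPC windows (15%), 6 of 18 microglial (33.3%), 5 of 19 Fc-list (26.3%), 5 of 15 pericyte (33.3%) and 11.8% of the windows of all genes tested, so that the order of the OPC and microglial lists was the opposite of that for CAGCTG. The SOX-type letters ACAAAG were in 14.5% of the windows of all genes tested, 10% of OPC, 33.3% of microglial and 0% of Fc-list windows. The longer form AACAAAG, which holds them, was in 4.16% of all windows and the variant ACAATG in 7.46%. TTCCTC, which is part of the reverse complement of GAGGAAGT, was in 26.2% of all, 20% of OPC, 50% of microglial and 57.9% of Fc-list windows. The NFI-type letters TGCCAGC were in 6.3% of all windows. The TATA box TATAAA was in 7.87% of all windows. The GC box GGGCGG was in 63.8% of all, 60% of OPC, 27.8% of microglial and 10.5% of Fc-list windows. The motifs printed were chosen after their counts were seen, and a match of letters is a description, not a binding site.

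Myeloid transcription factors were higher in GRP2/MP3 in batches 1, 2 and 4. All 19 were tested, 11 were higher in GRP2/MP3 at an unadjusted p under 0.05, 13 without batch 3, and the medians were 2.33, 3.17, -0.01 and 1.02. Spi1, encoding PU.1, was at 50.4, 14.2, 172 and 8.18 in GRP2/MP3 and 0.527, 0.215, 180.4 and 1.56 in PFMP (2.62, SE 0.82, unadjusted p = 0.0146, and 3.52 without batch 3). Irf8, its partner in microglial development, was at 63.6, 47.4, 60.6 and 6.08 in GRP2/MP3 and 1.26, 2.97, 64.6 and 0.36 in PFMP (2.68, SE 0.79, unadjusted p = 0.0107, and 3.61 without batch 3). Maf was at 66, 83.6, 14.4 and 11.3 in GRP2/MP3 and 1.5, 1.32, 13.9 and 1.8 in PFMP (3.03, SE 0.87, unadjusted p = 0.00988, and 4.02 without batch 3). All 3 were below 3 RPKM in the PFMP libraries of batches 1, 2 and 4 and above 13 in that of batch 3.

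Complement genes gave 7 of 14 tested (of 17) higher in GRP2/MP3 at an unadjusted p under 0.05, 9 without batch 3, with medians of 3.5, 2.73, 0.01 and 1.29. C1qa (chr4:136895917-136898803, - strand), a chain of the initiating component C1q, was at 1242, 360.1, 569 and 32.6 in GRP2/MP3 and 0.475, 3.25, 563 and 7.67 in PFMP (4.52, SE 1.46, unadjusted p = 0.0168, and 6.03 without batch 3). The Toll-like receptor list gave 9 of 13 tested (of 17), 11 without batch 3, with medians of 2.69, 2.94, 0.03 and 1.34. Both lists had 0 genes higher in PFMP at that p. MHC class II genes gave 1 of 8 tested (of 10), 3 without batch 3, against 5.95% and 7.74% of all genes tested. The 1 of 8 is no result about that list. Cd74, the invariant chain of MHC class II, was at 4.48, 9.42, 2240.4 and 11.3 in GRP2/MP3 and 0.458, 0.0524, 2245 and 4.15 in PFMP (1.62, SE 0.6, unadjusted p = 0.029, and 2.16 without batch 3), and its batch 3 levels were the highest in both populations.

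Inflammatory mediators were higher in GRP2/MP3 in batches 1, 2 and 4, and the 3 given first were highest in batch 3, where the populations were nearly equal. Of 21 cytokine and NF-kB genes 20 were tested and 16 were higher in GRP2/MP3 at an unadjusted p under 0.05, 17 without batch 3 (medians 2.69, 2.83, 0.00 and 1.43). Tnf was at 35.8, 426, 1235 and 7.14 in GRP2/MP3 and 0.675, 0.424, 1266 and 0.58 in PFMP (3.75, SE 1.19, unadjusted p = 0.0156, and 5.02 without batch 3). Il1b was at 33.7, 40.1, 4158 and 1.53 in GRP2/MP3 and 8.12, 1.49, 4272 and 0.0462 in PFMP (1.8, SE 0.68, unadjusted p = 0.0313, and 2.42 without batch 3). Of 21 chemokine genes 20 were tested, 12 were higher in GRP2/MP3 and 1 in PFMP, 15 and 1 without batch 3 (medians 3.66, 4.0, 0.02 and 1.3). Ccl3, a chemoattractant of monocytes, was at 707, 852, 5656 and 228 in GRP2/MP3 and 1.27, 5.4, 5789 and 46.7 in PFMP (4.39, SE 1.33, unadjusted p = 0.0125, and 5.87 without batch 3). The single chemokine gene higher in PFMP was Cx3cl1, the ligand of CX3CR1, at 0.244, 0.448, 0.331 and 3.3 in GRP2/MP3 and 19.1, 7.5, 0.336 and 4.62 in PFMP (-1.74, SE 0.71, unadjusted p = 0.0427, and -2.32 without batch 3).

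Lysosomal genes were higher in GRP2/MP3 in batches 1, 2 and 4. All 20 were tested, 14 were higher at an unadjusted p under 0.05, 15 without batch 3, and 7 had a repeated step, with medians of 4.91, 4.09, 0.06 and 0.79. Ctss, cathepsin S, was at 2100, 9495, 3208 and 83.1 in GRP2/MP3 and 18.3, 33, 3115 and 13.2 in PFMP (4.38, SE 1.28, unadjusted p = 0.0104, and 5.82 without batch 3). The secreted phosphoprotein gene Spp1 (chr5:104435118-104441050, + strand), which young white-matter microglia express, was at 2925, 3302, 1001 and 130.2 in GRP2/MP3 and 3.34, 45.7, 966 and 4.54 in PFMP (5.04, SE 1.32, unadjusted p = 0.00609), and 6.7 without batch 3 (0.000176). Spp1 had the largest difference over batches 1, 2 and 4 on the GRP2/MP3 side among the 431 genes with the same direction in all 4 batches and at least 5 RPKM in the higher population of each of batches 1, 2 and 4. Apoe, the lipid carrier of astrocytes and microglia, was at 10930, 2431, 6925 and 2037 in GRP2/MP3 and 37.1, 608, 6367 and 2808 in PFMP, higher in PFMP in batch 4 (2.45, SE 1.37, unadjusted p = 0.114, and 3.23 without batch 3).

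**Figure D3:**
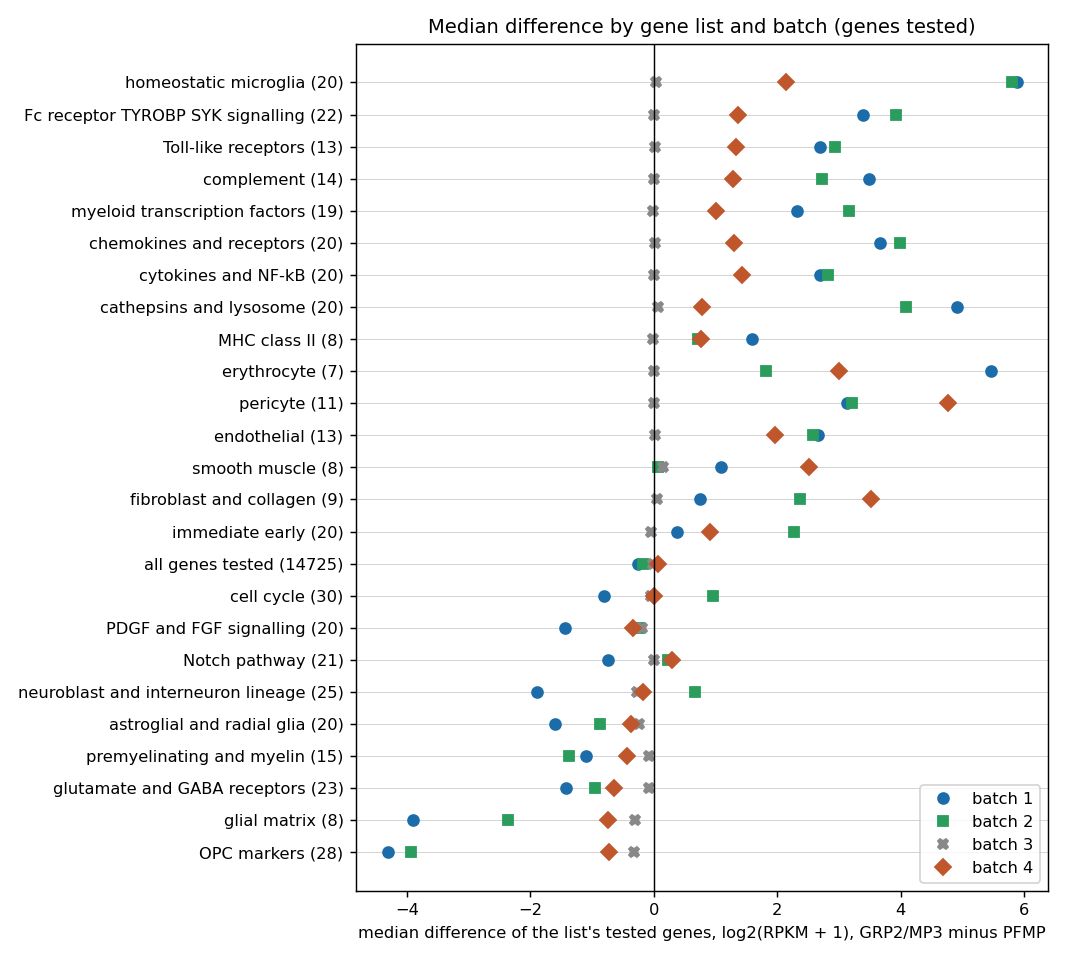
Median log2 difference (GRP2/MP3 minus PFMP, x axis) of the tested genes of each list (rows) within each batch, with the number of tested genes in parentheses and batches marked by symbol. OPC and glial matrix lists lie left of 0 and microglial, myeloid, pericyte and endothelial lists right of 0 in batches 1, 2 and 4, while batch 3 lies at -0.32 for OPC genes, -0.31 for glial matrix genes and 0.04 for microglial genes.

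Pericyte and endothelial genes were mostly higher in GRP2/MP3 in batches 1, 2 and 4, and smooth muscle genes were divided. Of 22 pericyte genes only 11 passed the filter, which removed genes low in PFMP and in batch 3, so that the tested members are not the whole list. Of the 11, 9 were higher in GRP2/MP3 at an unadjusted p under 0.05, also 9 without batch 3, and 9 had a repeated step, with medians of 3.14, 3.21, 0.00 and 4.77. Summed over all 22 genes, their share of library RPKM was 0.0275, 0.0666, 0.00996 and 0.624% in GRP2/MP3 and 0.00114, 0.00124, 0.0099 and 0.00435% in PFMP. GRP2/MP3 exceeded every PFMP library in batches 1, 2 and 4. In both batch 3 libraries 9 of the 22 genes were listed at 0.

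Rgs5 (chr1:169655501-169695813, + strand), a regulator of G-protein signalling and a standard pericyte marker, was at 120.4, 155, 0.251 and 6494 in GRP2/MP3 and 3.4, 0.599, 0.168 and 44.8 in PFMP (4.66, SE 1.1, unadjusted p = 0.00364). Without batch 3 the difference was 6.18 (4.57e-05), the lowest unadjusted p of that fit. Mean Rgs5 was 1692 ± 3201 RPKM in GRP2/MP3 and 12.2 ± 21.8 in PFMP (SD, n = 4), so the batch 4 library set most of the mean. Vtn (chr11:78499091-78502324, + strand), vitronectin, was at 68.8, 118, 0.205 and 258 in GRP2/MP3 and 2.61, 1.15, 0 and 1.44 in PFMP (4.27, SE 1.0, unadjusted p = 0.00349), and 5.6 without batch 3 (7.82e-05). Higd1b was at 287, 87.3, 0 and 463 in GRP2/MP3 and 0.298, 8.52, 0.0628 and 0 in PFMP (4.94, SE 1.4, unadjusted p = 0.00892, and 6.62 without batch 3). Kcnj8, a potassium channel subunit of pericytes, was at 12.8, 42.1, 0.382 and 68.9 in GRP2/MP3 and 0.29, 1.22, 0.387 and 0.0231 in PFMP (3.45, SE 0.91, unadjusted p = 0.0065, and 4.6 without batch 3). These 4 genes had a repeated step to GRP2/MP3, as did 4.21% of all genes tested. Untested members had the same order in those batches, such as Art3 at 21.1, 67.1, 0 and 52.7 in GRP2/MP3 and 0.11, 0.251, 0.254 and 0.604 in PFMP.

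Smooth muscle genes gave 4 of 8 tested (of 15) higher in GRP2/MP3 at an unadjusted p under 0.05, also 4 without batch 3, with medians of 1.08, 0.07, 0.15 and 2.52. In batch 2, 4 of the 8 were higher in each population. Summed over all 15 genes, their share of library RPKM was 0.00833, 0.0116, 0.00248 and 0.0259% in GRP2/MP3 and 0.00902, 0.0193, 0.00247 and 0.0141% in PFMP, so that PFMP was higher in batches 1 and 2 and GRP2/MP3 in batch 4. Acta2, smooth muscle actin, was at 9.33, 1.58, 4.84 and 22.6 in GRP2/MP3 and 0.306, 0.14, 2.86 and 0.0219 in PFMP (2.32, SE 0.69, unadjusted p = 0.0111, and 2.9 without batch 3). Among fibroblast and collagen genes, 4 of 9 tested (of 18) were higher in GRP2/MP3, with 5 higher and 1 lower without batch 3 (medians 0.75, 2.36, 0.05 and 3.51). Col4a1, of the basement membrane, was at 14.5, 32, 1.22 and 37.6 in GRP2/MP3 and 1.75, 3.18, 1.13 and 0.925 in PFMP (2.47, SE 0.7, unadjusted p = 0.00932, and 3.27 without batch 3).

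Endothelial genes gave 8 of 13 tested (of 21) higher in GRP2/MP3 at an unadjusted p under 0.05, 9 without batch 3, and 8 with a repeated step, with medians of 2.66, 2.57, 0.02 and 1.96. Cldn5 (chr16:18776847-18778262, + strand), the tight junction protein claudin 5, was at 53.7, 53.7, 0.335 and 49.8 in GRP2/MP3 and 0.483, 3.04, 0 and 9.22 in PFMP (2.92, SE 0.77, unadjusted p = 0.00651, and 3.76 without batch 3). Its GRP2/MP3 levels were alike in batches 1, 2 and 4. Flt1, a VEGF receptor, was at 14.3, 22.8, 1.2 and 9.6 in GRP2/MP3 and 1.42, 0.809, 0.862 and 0.199 in PFMP (2.44, SE 0.63, unadjusted p = 0.00553, and 3.17 without batch 3). Over all 21 genes the share of library RPKM was 0.015, 0.0323, 0.00551 and 0.0149% in GRP2/MP3 and 0.00307, 0.00202, 0.00544 and 0.00265% in PFMP.

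Most erythrocyte genes tested were higher in GRP2/MP3 outside batch 3. Of 12 erythrocyte genes 10 were in the table and 7 were tested, 5 were higher in GRP2/MP3 at an unadjusted p under 0.05, and the medians were 5.47, 1.82, 0.00 and 3.01. In each of batches 1, 2 and 4, 2 of the 7 were higher in PFMP, with lowest differences of -5.28, -1.05 and -1.15. Hbb-bs, an adult beta-globin, was at 6345, 1478, 103020 and 438 in GRP2/MP3 and 68.1, 213, 102860 and 47.8 in PFMP (3.12, SE 0.99, unadjusted p = 0.0155, and 4.16 without batch 3). The near-identical globin copies can share reads, so single globin values are uncertain.

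**Figure D4:**
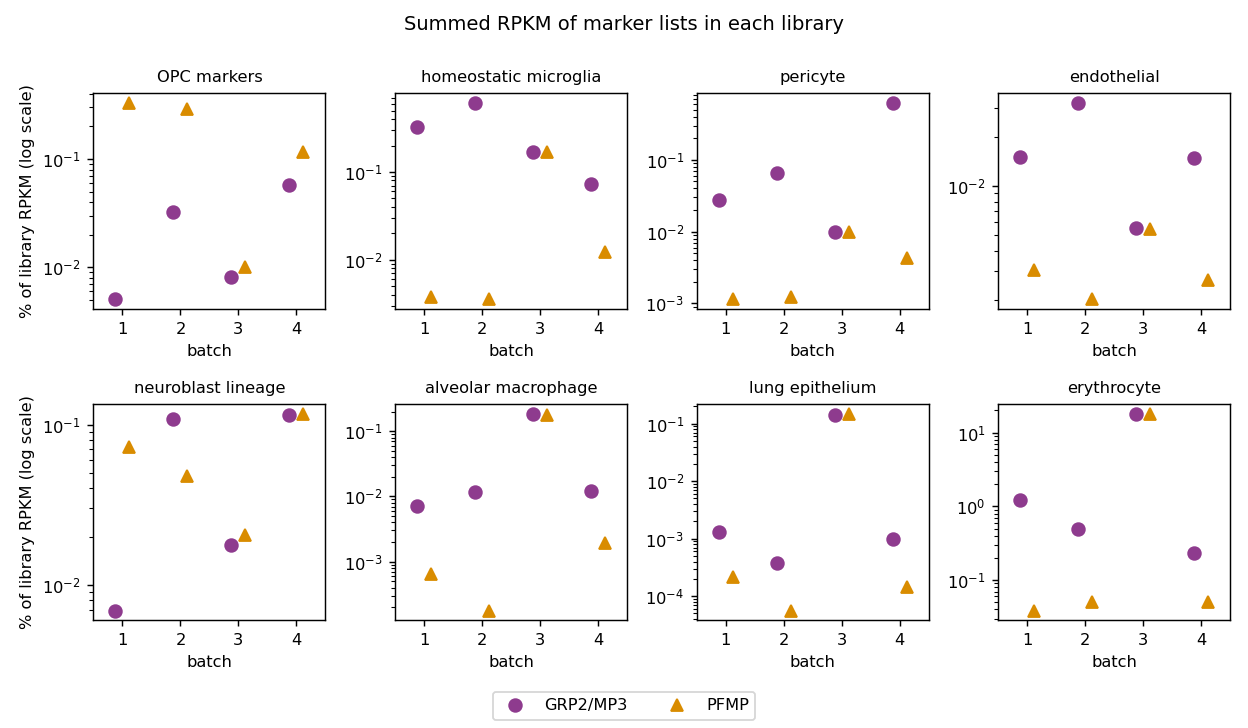
Share of library RPKM (percent, log axis) taken by the summed genes of 8 cell-type lists, by batch (x axis), with circles for GRP2/MP3 and triangles for PFMP. In batches 1, 2 and 4 OPC genes take more of PFMP, and microglial, pericyte, endothelial and erythrocyte genes more of GRP2/MP3, while the 2 batch 3 libraries are nearly level and hold the highest shares of alveolar macrophage, lung epithelium and erythrocyte genes.

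Several lists of the SVZ lineages showed no common direction. All 30 cell cycle genes were tested, 0 in either direction had an unadjusted p under 0.05 (1 higher in PFMP without batch 3), and the medians were -0.81, 0.96, -0.05 and 0.00. Mki67, the proliferation marker Ki-67, was at 3.77, 7.16, 3.06 and 11.4 in GRP2/MP3 and 2.75, 14.1, 3.29 and 6.21 in PFMP (0.04, SE 0.47, unadjusted p = 0.933, and 0.08 without batch 3), and this sign turned without batch 1 or batch 4. Ccnd1, cyclin D1, was at 10.4, 18.1, 1.91 and 54.6 in GRP2/MP3 and 49.2, 176, 1.93 and 71.3 in PFMP (-1.43, SE 0.63, unadjusted p = 0.0544, and -1.91 without batch 3). Of 28 neuroblast and interneuron genes 25 were tested, 2 were higher in PFMP and 0 in GRP2/MP3 at that p (all genes tested: 3.88% and 5.95%). The medians were -1.89, 0.68, -0.27 and -0.17 and differed in sign between batches 1 and 2. Dcx, of migrating neuroblasts, was at 2.56, 15.6, 0.332 and 14.7 in GRP2/MP3 and 39.1, 26.4, 0.677 and 20.002 in PFMP (-1.24, SE 0.63, unadjusted p = 0.0898, and -1.54 without batch 3), and Dlx1, of the interneuron lineage, at 5.41, 97.1, 1.05 and 32.4 in GRP2/MP3 and 32.7, 3, 1.85 and 43.3 in PFMP (0.34, SE 1.05, unadjusted p = 0.757, and 0.61 without batch 3). Stmn3, a stathmin of neuronal microtubules, was 1 of the 2 higher in PFMP, at 22, 28.7, 0.744 and 82.5 in GRP2/MP3 and 119, 306, 3.75 and 112 in PFMP (-1.91, SE 0.57, unadjusted p = 0.0114, and -2.06 without batch 3).

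Astroglial and radial glial genes were lower in GRP2/MP3 in each batch by their medians (-1.59, -0.87, -0.23 and -0.36). Of 23 genes, 20 were tested, with 2 higher in PFMP and 0 in GRP2/MP3 at an unadjusted p under 0.05 (all genes tested: 3.88% and 5.95%). Fabp7, the brain lipid-binding protein of radial glia and OPCs, was at 301, 1918, 140.3 and 5466 in GRP2/MP3 and 12636, 6737, 239 and 6546 in PFMP (-2.06, SE 0.9, unadjusted p = 0.0543, and -2.49 without batch 3). S100b was at 4.61, 1.84, 0 and 48 in GRP2/MP3 and 37.8, 77.6, 0.232 and 53 in PFMP (-2.01, SE 0.82, unadjusted p = 0.0434, and -2.57 without batch 3). Immediate early genes, which dissociation of tissue can induce, gave 4 of 20 tested (of 22) higher in GRP2/MP3 and 0 in PFMP, 6 and 0 without batch 3. Of all genes tested, 5.95% were higher in GRP2/MP3 at that p, and 7.74% without batch 3. The list medians were 0.38, 2.27, -0.04 and 0.91. Fos was at 109, 1635, 16.1 and 139 in GRP2/MP3 and 441, 307, 14.7 and 69.1 in PFMP (0.38, SE 0.72, unadjusted p = 0.614, and 0.47 without batch 3), and Atf3 at 35.3, 149, 277 and 8.41 in GRP2/MP3 and 0.337, 0.513, 280.2 and 2.51 in PFMP (3.2, SE 1.06, unadjusted p = 0.0184, and 4.27 without batch 3).

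Lists of tissues outside the gates were mostly below the filter. Of 25 ependymal and motile cilium genes 6 were tested, of 10 choroid plexus genes 1, of 16 lung epithelium genes 1 and of 1257 olfactory receptor genes 4, and none of these had an unadjusted p under 0.05 in either direction (without batch 3, 1 ependymal and 1 lung gene were higher in GRP2/MP3). Of 17 alveolar macrophage genes 10 were tested and 4 were higher in GRP2/MP3, 9 without batch 3. These include genes that are not confined to alveolar macrophages, such as Itgax and Mrc1. Chil3, a chitinase-like protein of alveolar macrophages, was at 0, 0.665, 617 and 0.63 in GRP2/MP3 and 0.0943, 0, 611 and 0 in PFMP, and so was high in batch 3 only.

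The transcription factors and top genes that the study names were chosen on these samples, so their directions are not independent evidence. Of 10 such factors 7 were tested, 3 stood higher in GRP2/MP3 with an unadjusted p below 0.05 and 1 in PFMP. Of 6 top genes all were tested, with 3 higher in each population. Gpr34, a lysophosphatidylserine receptor of microglia, was at 56.6, 94.4, 0.355 and 78.4 in GRP2/MP3 and 0.879, 0.847, 0.514 and 9.23 in PFMP (3.36, SE 0.93, unadjusted p = 0.00832, and 4.53 without batch 3).

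The genes with the largest differences over batches 1, 2 and 4, among those with the same direction in all 4 batches and at least 5 RPKM in the higher population of each of the 3 batches, were taken from both ends. There were 431 eligible genes on the GRP2/MP3 side and 1028 on the PFMP side. The first 15 for GRP2/MP3 were Spp1, Tyrobp, Fcer1g, Rgs5, C1qa, C1qb, Ctss, Cd52, Cd68, Trem2, Ccl6, Bcl2a1b, Cyba, C1qc and Rn7s1. Apart from Rgs5 and Rn7s1, these are genes of myeloid cells. The make-up depends on the rule, which asks for the same direction in batch 3. By that direction alone it left out the pericyte gene Higd1b and the myeloid genes Ccl3 and Crybb1. Their differences without batch 3 were 6.62, 5.87 and 5.66, and each exceeded that of the last of the 15. Cd52, a surface glycoprotein of leukocytes, was at 1077, 148, 1249.5 and 11.6 in GRP2/MP3 and 0.725, 0.828, 1197 and 2.68 in PFMP, and Trem2, the phagocytic receptor that pairs with TYROBP, at 392, 80.6, 299.8 and 36.2 in GRP2/MP3 and 0.126, 0.576, 289 and 3.96 in PFMP. The first 15 for PFMP were Pdgfra, Cntn1, C1ql1, Sox10, Tmem255b, A930009A15Rik, Olig1, Lhfpl3, 3110035E14Rik, Scrg1, Emid1, Opcml, Olig2, Rlbp1 and 1700086L19Rik. Of these, Rlbp1, a retinaldehyde-binding protein, had the lowest p, at 3.75, 15.7, 0.258 and 10.4 in GRP2/MP3 and 134, 213, 1.98 and 70.9 in PFMP (-3.1, SE 0.63, unadjusted p = 0.00158, and -3.72 without batch 3). Cntn1, the adhesion molecule contactin 1, was at 1.86, 4.14, 0 and 29.2 in GRP2/MP3 and 533, 102, 0.744 and 102 in PFMP (-3.61, SE 1.05, unadjusted p = 0.0102, and -4.55 without batch 3). In batch 3 the PFMP-side genes were low in both populations, and most GRP2/MP3-side genes were high in both.

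Insl3, named after its values were seen, differed by about the same amount in all 4 batches. Insl3 (chr8:71689214-71690575, + strand), a relaxin-family hormone of Leydig cells, was at 9.2, 7.45, 6.88 and 10.01 in GRP2/MP3 and 0.503, 0, 0 and 0.06 in PFMP. Every GRP2/MP3 library lay above every PFMP library, with a mean of 8.39 ± 1.46 RPKM against 0.141 ± 0.243 (SD, n = 4). Its difference of 3.05 (SE 0.38, unadjusted p = 6.8e-05) had the lowest unadjusted p of the fit and an adjusted p of 0.5. Insl3 was below 1 RPKM in all 4 PFMP libraries and passed the filter only through the GRP2/MP3 libraries, where it was high, so the filter favoured this separation. The size of the difference depends on the pseudocount, at 5.57 with 0.1 in place of 1. Insl3 overlaps Jak3, a kinase of blood cells, in GENCODE vM21, and reads of the pair may not be told apart. Jak3 was at 1.59, 1.5, 7.69 and 2.68 in GRP2/MP3 and 0.0271, 0.0928, 6.55 and 0.0615 in PFMP. Rn7s1 (chr12:69159295-69159594, + strand) is a copy of the 7SL RNA of the signal recognition particle, which has many near-identical copies. It was at 275, 10.1, 711 and 36.8 in GRP2/MP3 and listed at 0 in all 4 PFMP libraries, so its fitted difference depends on the pseudocount and no fold is given. Rn7s1 also passed the filter only through the GRP2/MP3 libraries, where it was high, so the filter favoured its separation and its place among the genes named above.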

How the data were processed

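RNA of sorted cells was amplified from its polyA fraction and sequenced on a NextSeq instrument. According to the study's methods, the authors trimmed reads with cutadapt 3.4, checked them with FastQC 0.11.9, aligned them to GRCm38 with STAR 2.6.1, quantified genes with Salmon 1.9.0 and compared populations with DESeq2 1.26.0. The authors deposited RPKM values for 45705 genes; the gene lengths and read totals behind them are not given in the sources used here. Another 26 columns of the table were empty, and genes were followed by Ensembl identifier, since 94 names of the table stand on several identifiers.

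Values were analysed as log2(RPKM + 1), without rescaling, for the 14725 genes that reached 1 RPKM in 4 or more of the 8 libraries. The model (limma 3.58.1 in R 4.3.3, lmFit and eBayes with a trended prior) had a term for population and the batch as a block. Adjusted p-values follow Benjamini and Hochberg over the tested genes, and 0.05 was the threshold. The pairing comes from the batch number in the labels. After the population means were taken out, libraries of the same number correlated at 0.159, 0.0298, 0.822 and 0.729 in batches 1 to 4, and the crossed pairs of batches 1 and 2 at 0.582 and 0.382. Populations of a batch were prepared from pooled litters, and p-values measure the spread between these libraries.

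Genes are named by rule: the sorting antigens, the members of 32 gene lists, and the 15 genes on each side with the largest mean difference over batches 1, 2 and 4 that have the same sign in all 4 batches and at least 5 RPKM in the higher population. The comparison, the lists and the rule were chosen with earlier results of these data known. Alternatives tried were no filter, a filter at 5 RPKM, a pseudocount of 0.1, no block, other scalings and priors, all 20 libraries, library weights (statmod 1.5.0) and each batch left out. Counts at an unadjusted p were added after seeing the data. Positions are from GENCODE vM21 and promoter sequences from RefSeq (GRCm38.p6), with windows for 9712 of 14714 tested gene names. Figures were drawn with Python 3.11.15 and matplotlib 3.10.9. Raw reads were not analysed, and a few list members are not reported here.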

Additional observations from a re-analysis of the deposited data

Results flagged for a closer look

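For each of the 99 tested genes named in the text, the 4 libraries of a population were searched for 1 that stood far from the rest. The gap to the nearest library, as a share of the group's whole range of log2(RPKM + 1), was set against Dixon's 95% critical value for 4 libraries, which chance passes in about 1 group in 20. The value was passed by 7 genes in GRP2/MP3, 3 of them through batch 3, and by 24 genes in PFMP, 20 of them through batch 3. Genes of a list vary together, so these counts are not counts of independent events.

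In PFMP, the batch 3 library stood above the rest for myeloid and blood cell genes, with shares of 0.835 for Tyrobp, 0.851 for Spi1, 0.898 for Maf, 0.976 for Tnf, 0.838 for Ctss, 0.919 for Bcl2a1b, 0.884 for Cd52, 0.908 for Fcgr4, 0.947 for Inpp5d, 0.954 for Itgax, 0.969 for Jak3 and 0.845 for Pik3cg. The same library stood below the rest for OPC, receptor and glial genes, with shares of 0.854 for Brinp3, 0.840 for Gria3, 0.844 for Gria1, 0.978 for Gria4, 0.877 for Sox6, 0.850 for 3110035E14Rik, 0.834 for Fabp7 and 0.830 for S100b. In batch 3 both populations shared the high levels of airway, alveolar macrophage and erythrocyte genes given above, and their part in these values was not tested.

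The other PFMP libraries that stood apart were batch 4, high, for Heyl (0.880) and Gpr34 (0.887), batch 2, high, for Higd1b (0.884), and batch 1, high, for Insl3 (0.857). In GRP2/MP3, the batch 3 library was high for Cd74 (0.866) and low for Cldn5 (0.98) and Gpr34 (0.881). The GRP2/MP3 library of batch 4 was high for Tmem255b (0.855) and Cx3cl1 (0.878) and low for Irf8 (0.869) and Vav1 (0.963).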

How the results depend on the processing

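The number of genes past the adjusted threshold was 0 in both directions in the limma fit and in each of the 14 alternatives. The lowest adjusted p of any alternative ranged from 0.112 (library weights) to 0.798 (without batch 1). The counts at an unadjusted p under 0.05, added after seeing the data, moved more. From 876 higher in GRP2/MP3 and 571 higher in PFMP they went to 496 and 294 with the filter at 5 RPKM and to 322 and 228 with library weights. Without the batch as a block they were 312 and 69, while the adjusted counts stayed at 0. With 1 batch left out they ranged from 327 to 1140 and from 164 to 612, highest on both sides without batch 3. Of the 99 named genes, 4 turned sign, 1 of them (Dlx1, -0.22) with library weights and all 4 with 1 batch left out. With 1 batch left out the difference ranged from -0.032 to 0.62 for Prom1, from -1.09 to 1.25 for Dlx1, from -0.21 to 0.35 for Mki67 and from -0.295 to 1.18 for Fos, with the lowest value without batch 2 for Prom1, Dlx1 and Fos and without batch 4 for Mki67. Without turning sign, 81 of the 99 became smaller by over 1.5 times with library weights, among them Tyrobp (from 4.86 to 2.08), Matn4 (from -2.78 to -1.08) and Cspg4 (from -1.35 to -0.41). Without batch 1 this held for 26, among them Olig2 (from -3.17 to -1.67) and Apoe (from 2.45 to 0.55), and without batch 2 for 16. With the pseudocount of 0.1, 13 became larger by as much. Among 30 lists, the median of the Notch pathway turned to -0.56 and that of the ependymal genes to 0.37 with the filter at 5 RPKM, which tests fewer genes. For the other reversals the cause was not tested. Under median-of-ratios scaling the median of all genes was -0.02 against -0.11. Absolute depth is unknown, so low values carry no counting error here.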
